A study of Mus musculus with 6 samples.

Results

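Adipokines are proteins that fat cells release into the tissue or the blood, and the 10 adipokine genes *Lep*, *Adipoq*, *Retn*, *Cfd*, *Rbp4*, *Rarres2*, *Nampt*, *Apln*, *Nrg4* and *Metrnl* were read by symbol from a count table of 55401 genes. The RNA came from scWAT, the subcutaneous white adipose depot, of 3 mice that carried floxed alleles of *Yap* and *Taz* without Cre, called YT-FF after the study's methods and labelled WT in the deposit, and from 3 mice labelled Yapfl/fl/Tazfl/fl;AdipoqCre, called YT-AKO. All 6 were male, 8 weeks old and kept at room temperature. Cre was driven by the promoter of *Adipoq*, itself 1 of the 10 genes, so the deletion is aimed at mature adipocytes, while the RNA comes from the whole tissue, in which fewer cells of a type and less RNA per cell cannot be told apart. All 10 genes passed the filter on low counts.

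Leptin, encoded by *Lep*, is made by white adipocytes in proportion to their fat store and acts on the brain to lower food intake. Adiponectin, encoded by *Adipoq*, is among the most abundant proteins that adipocytes secrete, is assembled into multimers in the endoplasmic reticulum and raises insulin sensitivity in liver and muscle. White and thermogenic (beige and brown) adipocytes differ in what they release: leptin and resistin are known as products of white fat, and neuregulin 4 as a product of brown fat.

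The libraries held 17740987 to 21838493 counted fragments. The libraries labelled YT-AKO had lower *Yap1* than the YT-FF libraries (CPM, the count over the TMM-scaled library total times 1e6: 57.1 to 69.1 in YT-FF and 29.0 to 37.7 in YT-AKO) but higher *Wwtr1*, which encodes TAZ (76.0 to 98.8 against 133 to 175 CPM). In TPM *Yap1* was again lower without overlap, while *Wwtr1* overlapped (62.3 to 74.5 against 48.7 to 102 TPM). A lower RNA level was thus seen for *Yap1* and not for *Wwtr1*. These counts cover all exons and all cells of the tissue, so they do not measure the deletion in adipocytes or the proteins. Directions below rest on the labels. Adipose tissue, though not the depot, was borne out by the level of *Adipoq* in TPM. It ranked 10 to 13 among all tested genes in YT-FF and 13 to 29 in YT-AKO. All 19 adipocyte identity genes had counts, which alone would not identify the tissue. Their summed level was 56939 to 89948 CPM in YT-FF and 67107 to 75935 CPM in YT-AKO. *Scd1* alone made up 22587 to 45194 CPM of it in YT-FF and 8021 to 23108 CPM in YT-AKO. The library YT-AKO 2 stood apart, with 20501 genes counted at least once against 22810 to 24576 in the others and a TMM factor, the scaling edgeR gives a library for its composition, of 0.777 against 0.954 to 1.16. Without it the log2 fold changes described below were 1.78 for *Cfd*, 1.04 for *Metrnl*, 0.99 for *Rarres2*, 0.73 for *Nampt*, 0.57 for *Apln*, 0.38 for *Retn*, 0.37 for *Adipoq*, 0.32 for *Rbp4* and *Nrg4* and -0.03 for *Lep*.

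Upstream sequence was examined because the study concerns C/EBPβ, and YAP and TAZ are known to act through TEAD factors. RefSeq windows of 250 bases before the transcription start (build GRCm38.p6) were found for 9 of the 10 genes, with a pair of starts for *Rbp4*; *Rarres2* had no entry. The 3 shown are those of leptin and adiponectin and of *Cfd*, the gene with the largest fold change, all on the plus strand, with capitals marking TTGCNNAA, a C/EBP-type motif, searched on both strands.
*Lep*, chr6:29059971-29060220: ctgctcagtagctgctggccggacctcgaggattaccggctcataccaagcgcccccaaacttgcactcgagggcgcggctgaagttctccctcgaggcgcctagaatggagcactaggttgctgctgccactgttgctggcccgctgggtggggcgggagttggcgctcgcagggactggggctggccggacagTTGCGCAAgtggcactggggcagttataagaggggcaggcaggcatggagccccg
*Adipoq*, chr16:23146286-23146535: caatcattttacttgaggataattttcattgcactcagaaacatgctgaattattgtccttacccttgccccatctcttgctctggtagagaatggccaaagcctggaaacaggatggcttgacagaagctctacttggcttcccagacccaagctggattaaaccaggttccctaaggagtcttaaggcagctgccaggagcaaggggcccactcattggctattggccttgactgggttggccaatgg
*Cfd*, chr10:79890603-79890852: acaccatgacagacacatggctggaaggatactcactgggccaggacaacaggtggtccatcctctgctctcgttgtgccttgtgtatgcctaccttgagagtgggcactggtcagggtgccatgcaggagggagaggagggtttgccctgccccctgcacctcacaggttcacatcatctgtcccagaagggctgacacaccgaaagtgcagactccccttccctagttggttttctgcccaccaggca
TTGCNNAA was found 55 bases before the start of *Lep* and, on the other strand, 128 bases before 1 of the *Rbp4* starts, and in 9.56% of all 32851 windows; the windows of the other genes held none. The TEAD-type motif GGAATG, searched on both strands, was in none of them and in 12.6% of all windows; this says only that these letters are not in these 250 bases.

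The order of the genes by level was read in TPM, the transcript share that corrects each count for the summed exon length. In YT-FF, *Cfd* stood first with 22849 ± 2224 TPM (mean ± SD, n = 3) and ranked 2, 1 and 2 among all tested genes in the 3 libraries. *Adipoq* followed with 4511 ± 618 TPM, at ranks 10 to 13, and *Retn* with 1260 ± 216 TPM, at ranks 64 to 82. *Rbp4* (550 ± 236 TPM), *Lep* (489 ± 169 TPM) and *Rarres2* (268 ± 58.7 TPM) formed a middle group in which neighbors in the order overlapped. The TPM of *Rarres2* can be too low for this order. It divides by the full exon length, though fragments on the 33.6% of bases shared with *Lrrc61* were not counted. *Nampt* (172 ± 20.05 TPM), *Nrg4* (62.0 ± 4.87 TPM), *Metrnl* (33.02 ± 7.17 TPM) and *Apln* (11.8 ± 2.22 TPM) lay below it, and there no gene's range reached that of the next. The same order was found with TMM-scaled counts per kilobase. In YT-AKO the order of the means was the same except that *Lep* (293 ± 178 TPM) and *Rarres2* (395 ± 116 TPM) changed places, with ranges that overlapped.

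**Figure D1:**
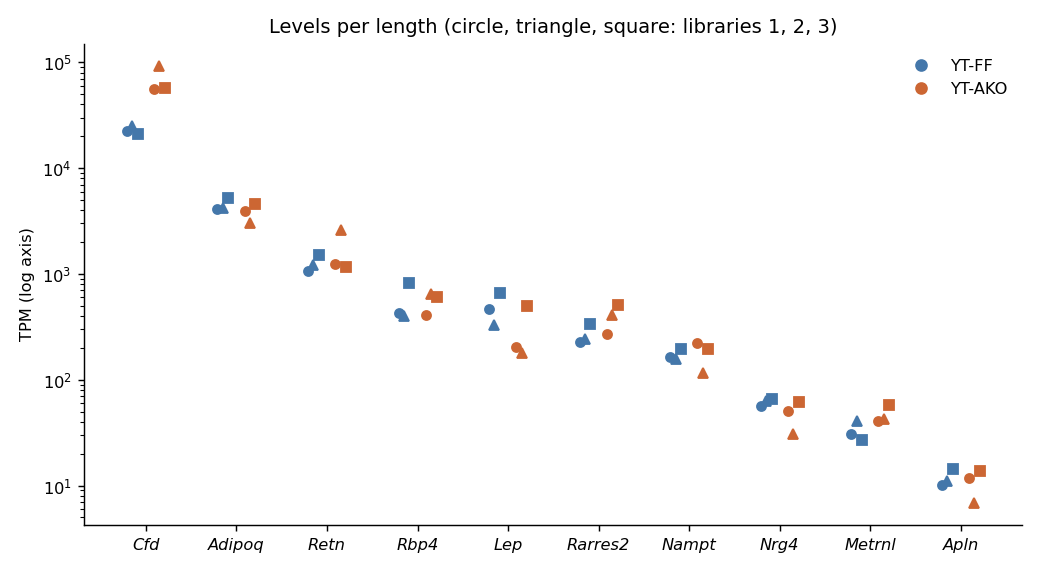
TPM of the 10 adipokine genes in each library on a log axis, ordered by the YT-FF mean; blue points are YT-FF, orange points YT-AKO, and shapes mark libraries 1, 2 and 3. *Cfd* is the highest gene in both groups and the one whose groups do not overlap on this scale, and *Lep*, *Nrg4*, *Adipoq*, *Nampt* and *Apln* are each lowest in YT-AKO 2.

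The comparison of YT-AKO with YT-FF asked how the output of these genes differed in scWAT in which adipocyte *Yap* and *Taz* were targeted and thermogenic genes are high. Of the 10 genes, 4 rose at a false discovery threshold of 0.05, namely *Cfd*, *Metrnl*, *Rarres2* and *Nampt*, and 0 fell. Among all 16807 tested genes, 12.6% were called higher and 9.01% lower by the same rule (edgeR quasi-likelihood fit, Benjamini-Hochberg adjusted p over all of them). In TMM-scaled CPM, 5 of the 10 genes had every library labelled YT-AKO above every YT-FF library, against 25.7% of all tested genes, and 0 had every library below, against 25.8%. The median log2 fold change of the 10 was 0.71, beside -0.02 over all tested genes. DESeq2 called *Retn* as well, 5 of 10, where it called 15% of genes higher and 11.7% lower. At the study's stricter threshold, a log2 fold change beyond 1 with an adjusted p under 0.01, edgeR called 0 of the 10 (0.0892% of genes higher, 0.0357% lower) and DESeq2 3 (7.07% higher, 3.56% lower). Of the 10 genes, 5 had an unadjusted p under 0.05 with edgeR, as did 40.8% of all tested genes. Calls were lost over all genes when a control library was left out: without YT-FF 1, 2 or 3 edgeR called 0 of the 10 and 0%, 0.0117% and 7.06% of all genes, and without YT-AKO 3 it called 2 of the 10 and 15.3% of all genes.

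**Figure D2:**
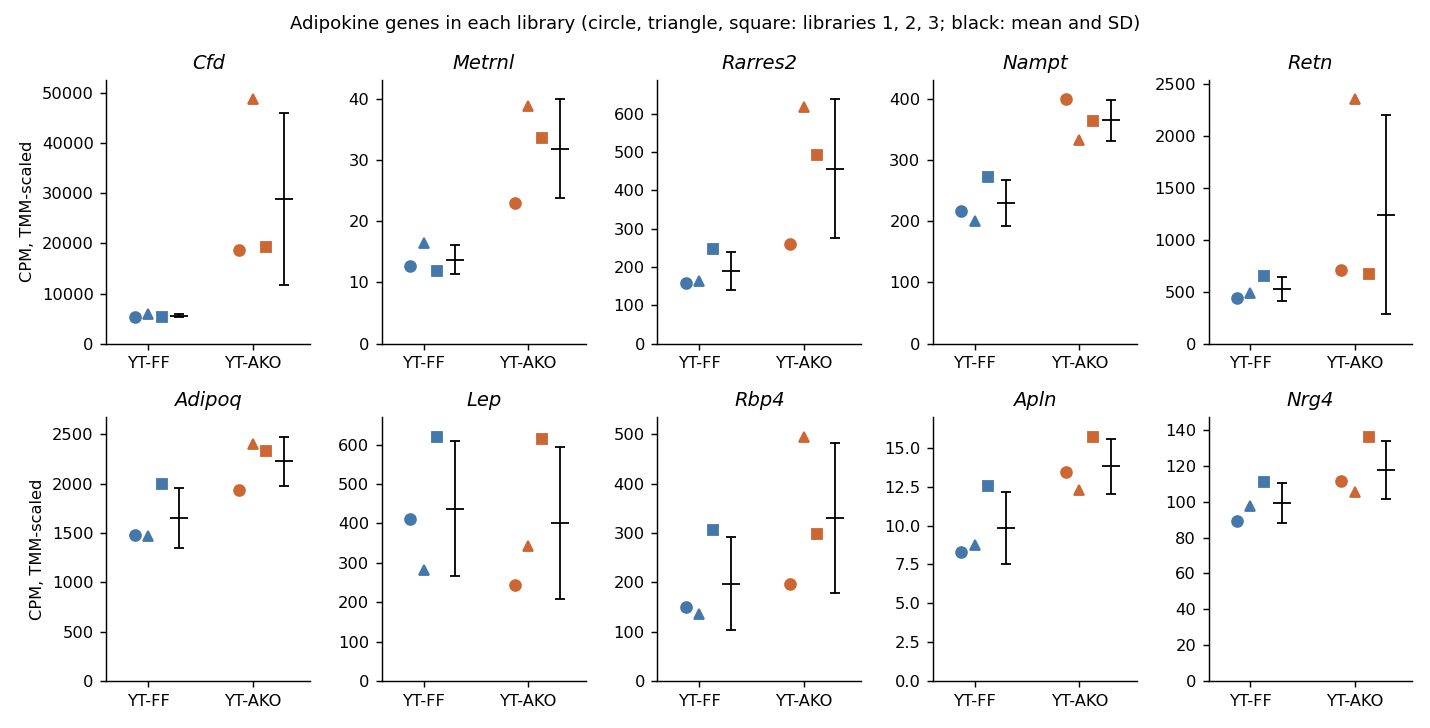
TMM-scaled CPM of each adipokine gene in the 3 YT-FF (blue) and 3 YT-AKO (orange) libraries, with circle, triangle and square for libraries 1, 2 and 3 and the mean with SD in black; each panel starts at 0. The groups do not overlap for *Cfd*, *Metrnl*, *Rarres2*, *Nampt* and *Retn*, and YT-AKO 2 is far above the other libraries for *Cfd* and *Retn*.

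*Cfd* (ENSMUSG00000061780, chromosome 10, 79890853 to 79892655 of mm10, plus strand) encodes adipsin, or complement factor D, the serine protease that starts the alternative complement pathway and is secreted mainly by adipocytes. YT-FF 1 to 3 held 125998, 134296 and 103723 of its fragments, and the libraries labelled YT-AKO 1 to 3 held 321727, 827790 and 326536. Adipsin messages thus made up 0.568% to 0.681% of all counted fragments in YT-FF and 1.78% to 3.79% in YT-AKO. Its level was 5370.3, 5902 and 5341 CPM in YT-FF and 18705, 48819 and 19297 CPM in YT-AKO, where library 2 was far above the other two. The rise was 5.23-fold, or 2.39 as a log2 fold change (95% interval 1.39 to 3.38, standard error 0.430, edgeR adjusted p = 0.0185). Without YT-AKO 2 the log2 fold change was 1.78, the lowest of the fits that left out a library, with an edgeR adjusted p of 0.00119, and leaving out YT-FF 1, 2 or 3 gave 0.110, 0.112 and 0.0506. In TPM, too, every YT-AKO library (56561, 92788 and 56905 TPM) lay above every YT-FF library (22386, 25268 and 20893 TPM), as for 7.52% of tested genes.

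*Metrnl* (ENSMUSG00000039208, chromosome 11, 121701544 to 121716306, plus strand) encodes meteorin-like, a hormone of muscle and fat linked to cold exposure. Its levels were 12.7, 16.5 and 11.9 CPM in YT-FF and 23.0, 38.9 and 33.7 CPM in YT-AKO, so that the lowest YT-AKO library stood above the highest YT-FF library. It rose 2.32-fold, or 1.21 as a log2 fold change (edgeR, standard error 0.241, adjusted p = 0.0210). *Rarres2* (ENSMUSG00000009281, chromosome 6, 48569696 to 48572789, minus strand) encodes chemerin, a chemoattractant for immune cells and an adipokine. It was at 157, 163 and 247 CPM in YT-FF and at 259.6, 617 and 492 CPM in YT-AKO, and YT-FF 3 and YT-AKO 1 came close to each other. The log2 fold change of *Rarres2* was 1.27 (edgeR, standard error 0.340, adjusted p = 0.0377), and 33.6% of its exon bases are shared with *Lrrc61*, where fragments of either gene were left out of the count. *Nampt* (ENSMUSG00000020572, chromosome 12, 32819545 to 32853349, plus strand) encodes the rate-limiting enzyme of NAD salvage, also found outside cells as visfatin. Its levels of 217, 200.5 and 273 CPM in YT-FF and 399.8, 333 and 364 CPM in YT-AKO did not overlap, and the log2 fold change was 0.67 (edgeR, standard error 0.185, adjusted p = 0.0407). Of the fits that left out 1 library, 3 of 6 kept *Metrnl* called, 2 *Rarres2* and 1 *Nampt*.

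*Retn* (ENSMUSG00000012705, chromosome 8, 3655770 to 3660110, plus strand) encodes resistin, an adipocyte hormone of rodents that opposes insulin. It was at 439.9, 485 and 655 CPM in YT-FF and at 705, 2353 and 669 CPM in YT-AKO. Only YT-AKO 2 was clearly above the control range, and the other two YT-AKO libraries lay just over YT-FF 3. The log2 fold change was 1.24 with a 95% interval of 0.09 to 2.38 and did not pass the test (adjusted p = 0.102, edgeR). Without YT-AKO 2 it was 0.38, and the adjusted p ranged from 0.0663 to 0.266 over the fits that left out 1 library.

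*Adipoq* (ENSMUSG00000022878, chromosome 16, 23146536 to 23158028, plus strand) had 34584, 33514 and 38830 fragments in YT-FF and 33351, 40735 and 39497 in YT-AKO, so its counts overlapped between the groups. In CPM it was at 1474, 1473 and 1999 in YT-FF and at 1939, 2402 and 2334 in YT-AKO, where YT-FF 3 and YT-AKO 1 crossed. Its log2 fold change was 0.43 (standard error 0.220, 95% interval -0.08 to 0.94, adjusted p = 0.176, edgeR). *Lep* (ENSMUSG00000059201, chromosome 6, 29060220 to 29073877, plus strand) varied more between mice than between genotypes. It was at 410.0, 281 and 620 CPM in YT-FF and at 243, 343 and 615 CPM in YT-AKO, and the lowest and the highest library differed within both groups by more than the group means did. The log2 fold change of *Lep* was -0.13 (standard error 0.398, 95% interval -1.05 to 0.80, adjusted p = 0.831, edgeR), and it turned positive when YT-FF 3 (0.22) or YT-AKO 1 (0.14) was left out.

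*Rbp4*, *Apln* and *Nrg4* did not pass the test either. *Rbp4* (ENSMUSG00000024990, chromosome 19, 38116629 to 38125281, minus strand) encodes the retinol carrier of blood and was at 150.2, 135 and 306 CPM in YT-FF and at 196, 496 and 298 CPM in YT-AKO (log2 fold change 0.74, 95% interval -0.22 to 1.71, adjusted p = 0.214, edgeR). Leaving out 1 library moved *Rbp4* between 0.32 (without YT-AKO 2) and 1.21 (without YT-FF 3). The vasoactive peptide apelin is encoded by *Apln* (ENSMUSG00000037010, chromosome X, 48025146 to 48034853, minus strand), which was at 8.31, 8.74 and 12.5 CPM in YT-FF and at 13.4, 12.3 and 15.7 CPM in YT-AKO (log2 fold change 0.49, 95% interval -0.05 to 1.02, adjusted p = 0.149, edgeR). *Nrg4* (ENSMUSG00000032311, chromosome 9, 55220222 to 55326844, minus strand) encodes neuregulin 4, an ERBB4 ligand known as a product of brown fat, and was at 89.4, 97.5 and 111 CPM in YT-FF and at 111, 106 and 136 CPM in YT-AKO. Its log2 fold change was 0.25 (95% interval -0.15 to 0.64, adjusted p = 0.303, edgeR), and 0.46 with the correction for gene length (adjusted p = 0.0849, edgeR). The median was 3.12 for 10 thermogenic adipocyte markers, of which 8 rose and 0 fell, beside 12.6% of all genes called higher and 9.01% lower. Those markers included *Ucp1*, the uncoupling protein of thermogenic fat (6.77 ± 3.07 to 260.4 ± 126 CPM, n = 3), and *Cidea*, a lipid droplet protein of brown and beige fat (129 ± 26.9 to 1164 ± 284 CPM). The exons of *Nrg4* share 8.97% of their bases with *Fbxo22* and *Gm15625*.

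**Figure D3:**
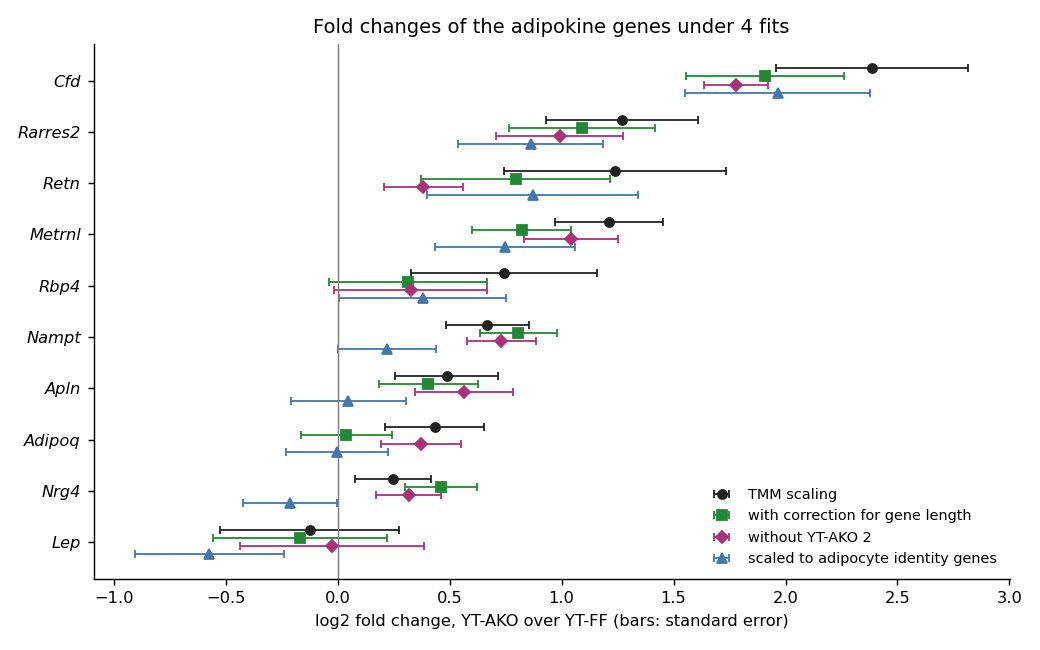
Log2 fold changes (YT-AKO over YT-FF) of the 10 adipokine genes with their standard errors from 4 edgeR fits: TMM scaling (black), with a correction for gene length (green), without YT-AKO 2 (purple) and scaled to adipocyte identity genes (blue). *Cfd* is the highest in every fit, *Retn* moves from 1.24 to 0.38 without YT-AKO 2, and *Adipoq* and *Nrg4* change sign with the scaling to adipocyte genes.

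How the libraries were scaled bore on these values. With TMM the median of all tested genes was -0.02, with library totals alone it was -0.34, and in TPM the median log2 ratio of the group means was -0.66, so every difference is relative to such a shift. In TPM, 6 of the 10 genes had a higher and 4 (*Lep*, *Adipoq*, *Nrg4* and *Apln*) a lower mean in YT-AKO, and 1 of the 10, *Cfd*, did not overlap between the groups, while 54.5% of all tested genes were lower without overlap on that scale. *Adipoq* was at 4102, 4210 and 5222 TPM in YT-FF and at 3914, 3048 and 4595 TPM in YT-AKO, the opposite direction to its CPM. Scaled so that the adipocyte identity genes had the same median level in every library, a choice made after the data were seen, 642 genes were called higher and 4296 lower, against 2121 and 1515 with TMM. On that scale *Cfd* alone of the 10 was called (log2 fold change 1.97, adjusted p = 0.0111, edgeR), where 3.82% of genes were called higher, 25.6% were called lower, and *Adipoq* was at -0.0027. A correction for gene length kept *Cfd*, *Metrnl* and *Nampt* called (3 of 10, with 10.1% of genes called higher and 4.54% lower), and *Rarres2* had an adjusted p of 0.0594.

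Ratios within a library do not depend on its scaling, so each gene was also set against *Adipoq* of the same library, in TPM. *Cfd* stood at 5.46, 6.002 and 4.001 times *Adipoq* in YT-FF and at 14.4, 30.4 and 12.4 times in YT-AKO, 3.70-fold higher in the mean. *Rarres2* (1.77-fold) and *Metrnl* (1.64-fold) were the other genes whose ratio was higher in every YT-AKO than in every YT-FF library, 3 of 9 against 10.6% of all tested genes (lower without overlap, 0 of 9 against 36.6%). For each of these 3 the two-sided exact permutation test of the log ratios gave p = 0.1, the smallest that 3 against 3 libraries allow, and 0.3 after Benjamini-Hochberg adjustment over the 9 ratios. *Lep* per *Adipoq* was 0.115, 0.0785 and 0.128 in YT-FF and 0.0516, 0.0588 and 0.109 in YT-AKO, with YT-AKO 3 inside the control range (exact permutation test, p = 0.2). *Nampt* and *Nrg4* per *Adipoq* overlapped between the groups and changed 1.19-fold and 0.876-fold in the mean. Such ratios do not remove a trend with gene length that differs between libraries. With the correction for gene length, log2 fold changes were 0.81 for *Nampt*, 0.46 for *Nrg4* and 0.038 for *Adipoq* (edgeR).

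**Figure D4:**
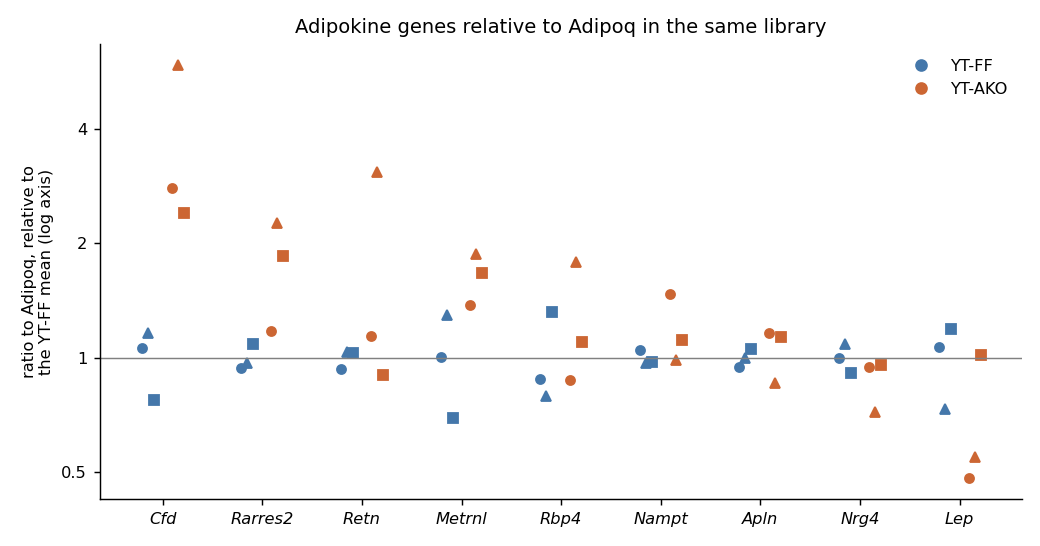
Ratio of each adipokine gene to *Adipoq* in the same library, divided by the YT-FF mean of that ratio, on a log axis; blue points are YT-FF, orange points YT-AKO, and shapes mark libraries 1, 2 and 3. All YT-AKO points lie above all YT-FF points for *Cfd*, *Rarres2* and *Metrnl*, and 2 of the 3 YT-AKO libraries lie lowest for *Lep*.

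Of 15 receptors and binding proteins, 1 fell and 0 rose, with a median log2 fold change of -0.23, beside 9.01% called lower and 12.6% called higher over all genes. Of the 15, 4 were lower without overlap, near the 25.8% of all genes. *Lepr*, the leptin receptor, was at 45.1, 30.9 and 23.0 CPM in YT-FF and at 22.03, 13.2 and 11.8 CPM in YT-AKO, so that all YT-AKO libraries lay below all YT-FF libraries by a narrow margin. The log2 fold change of *Lepr* was -1.07 (edgeR, standard error 0.322, adjusted p = 0.0497), and of the 6 fits that left out a library, 1 (without YT-AKO 1) called it. *Adipor2*, a receptor of adiponectin, was at 537, 633 and 618 CPM in YT-FF and at 503, 302 and 530 CPM in YT-AKO without overlap (log2 fold change -0.42, adjusted p = 0.226, edgeR), and *Adipor1* overlapped (0.17). *Cmklr1*, the chemerin receptor, did not overlap between groups either but missed the threshold (-0.57, adjusted p = 0.148, edgeR). *Cdh13* (-0.23), the adiponectin-binding T-cadherin, *Aplnr* (-0.12), the apelin receptor, *Erbb3* (-0.60), *Erbb4* (0.50), *Cap1* (-0.38), *Stra6* (-0.52), *Stra6l* (-0.51), *Gpr1* (0.31), *Ccrl2* (0.23), *C3ar1* (0.47) and *C5ar2* (0.54) are given as log2 fold changes and did not pass. The values in this paragraph are not corrected for gene length. With that correction 4.54% of all genes were called lower, and *Cdh13* was at 0.22 (edgeR).

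Genes that act with or below these proteins moved in small numbers. Of 11 genes of leptin receptor signaling 1 fell and 0 rose, *Irs2*, an insulin receptor substrate (76.0 ± 30.8 to 33.1 ± 7.03 CPM). Of 14 genes of adiponectin receptor signaling 2 rose and 1 fell: *Prkag1*, an AMPK subunit (log2 fold change 1.11), and *Stk11*, the kinase above AMPK (0.57), were higher, and *Appl1*, the adaptor of the adiponectin receptors, was lower (-0.75). *Prkag1* was at 24.3, 21.5 and 21.9 CPM in YT-FF and at 35.8, 74.5 and 36.4 CPM in YT-AKO. It shares 43.7% of its exon bases with *B130046B21Rik*, where fragments of either gene were left out of the count. Of 10 genes of adiponectin folding and secretion 3 rose and 0 fell, with a median of 0.35. These were *Gstk1*, also named DsbA-L and known to help adiponectin multimers form (41.9 ± 8.05 to 91.8 ± 30.4 CPM), the chaperone *Hspa5* (log2 fold change 0.79) and the collagen-type hydroxylase *Plod3* (0.61). Beside *Cfd*, 1 of 8 genes of the alternative complement pathway rose and 2 fell: *Cfp*, properdin, which stabilizes the convertase, rose from 73.8 ± 1.53 to 145 ± 43.6 CPM, and the regulators *Cd46* (6.86 ± 0.615 to 3.21 ± 0.285 CPM) and *Cfi* (1.58 ± 1.29 to 0.313 ± 0.0669 CPM) were lower. YT-FF held 72, 19 and 16 fragments of *Cfi* and YT-AKO 4 to 6, and the log2 fold change of Cfi went from -2.31 to -1.39 without YT-FF 1 (edgeR adjusted p = 0.204). Without overlap in TMM-scaled CPM, 4 of these 8 genes were lower and 1 higher, against 25.8% and 25.7% of all tested genes. *Cfb* was among the lower ones at a low level but was not called (log2 fold change -2.05, adjusted p = 0.125, edgeR). It shares 79.5% of its exon bases with *Gm20547*. The groups overlapped for *C3* (log2 fold change 0.01). Around *Nampt*, 2 of 15 tested genes of NAD metabolism rose and 0 fell, *Naprt* (14.5 ± 1.34 to 44.0 ± 11.3 CPM), which makes NAD from nicotinic acid, and *Nmnat1* (9.87 ± 1.21 to 22.3 ± 5.51 CPM), which completes NAD in the nucleus. Around *Rbp4*, 2 of 15 tested genes of retinol handling rose and 0 fell, among them the retinal reductase *Dhrs3* (log2 fold change 0.85). All calls in this paragraph are from edgeR's quasi-likelihood test across the 16807 genes, where 12.6% were called higher and 9.01% lower. They are not corrected for gene length, with which 10.1% were called higher and 4.54% lower.

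**Figure D5:**
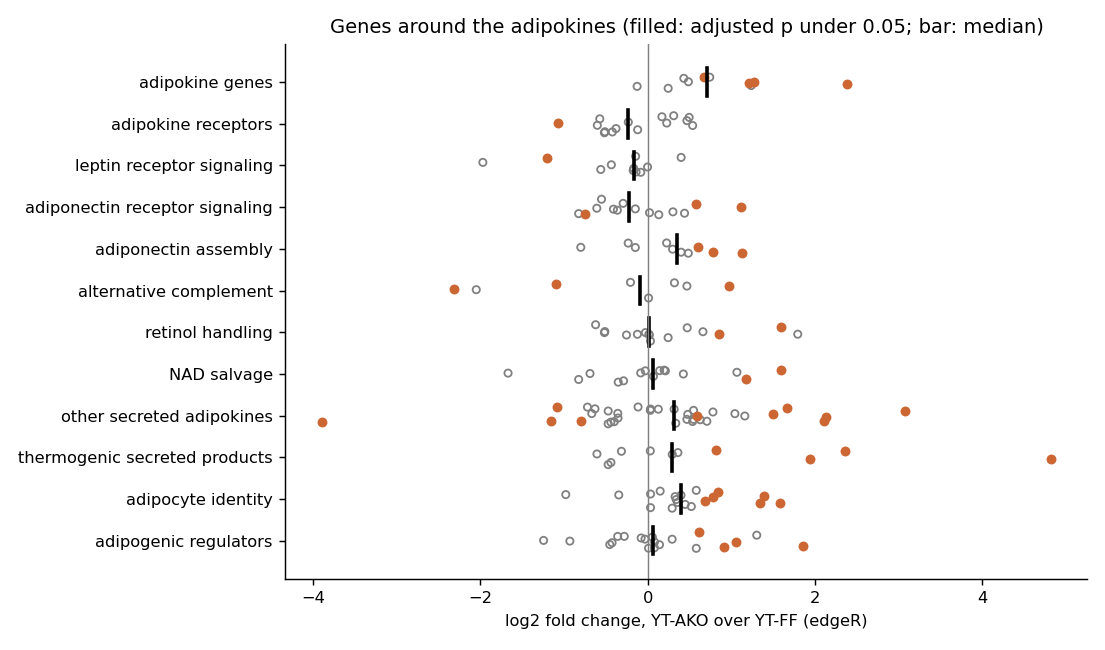
Log2 fold changes (YT-AKO over YT-FF, edgeR) of the tested genes of 12 lists around the adipokines; each point is a gene, filled where its adjusted p is under 0.05, and the black bar is the list's median. The receptor list lies mostly below 0 with 1 filled point, and the adipokine genes have the highest median, 0.71, of the lists drawn. Lists not drawn include thermogenic adipocyte markers (median 3.12) and skeletal muscle markers (2.41), whose medians are higher.

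The adipocyte identity genes give the setting for these values, again beside 12.6% of all genes called higher and 9.01% lower. Of 19, 6 rose and 0 fell with TMM scaling (median 0.40), among them *Gpd1*, which makes glycerol phosphate (921 ± 153 to 2424 ± 492 CPM), *Thrsp*, a lipogenic gene (1208 ± 199 to 3625 ± 1817 CPM), the lipase gene *Pnpla2* (log2 fold change 0.79) and *Dgat1* (0.68). Of 20 adipogenic regulators 4 rose and 0 fell: *Cebpb* (116 ± 35.1 to 423 ± 117 CPM), *Nr1h3* (log2 fold change 1.06), *Klf15* (0.92) and *Esrra* (0.61). Beside *Adipoq* on chromosome 16, 2 of 4 tested genes rose and 1 fell. *St6gal1* fell by 0.82 on the log2 scale, *Rfc4* rose from 6.49 ± 1.76 to 13.9 ± 4.80 CPM, and *Fetub*, counted 1 to 5 times in YT-FF and 11 to 12 times in YT-AKO, was called higher at that depth. Cre was driven by the promoter of *Adipoq*, and any part of this driver in these values was not tested.

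Markers of other cells were counted in the same way, again beside 12.6% of all genes called higher and 9.01% lower. Of all tested genes, 25.7% were higher and 25.8% lower without overlap in TMM-scaled CPM. The part of these markers in the adipokine values was not tested. Of 9 macrophage markers 1 rose and 0 fell (*Fcgr1*, 6.32 ± 0.222 to 11.9 ± 1.83 CPM), and their summed level was 1090 to 1283 CPM in YT-FF and 1456 to 1764 CPM in YT-AKO, without overlap. Of 10 progenitor and fibroblast markers 3 rose and 1 fell, with summed levels of 4997 to 6341 and 5946 to 9423 CPM, and the calls named were *Lum*, *Pi16* and *Ly6a* (higher) and *Dpp4* (lower). Of 8 endothelial markers, which bear on apelin, 0 rose and 1 fell (*Kdr*, 113 ± 7.86 to 65.9 ± 15.8 CPM), with summed levels of 742 to 783 and 630.0 to 774 CPM. Of 6 B cell markers 0 rose and 3 fell (among them *Cr2* and *Ms4a1*), with summed levels of 963 to 1113 and, below all of these, 569.7 to 926 CPM, and of 7 T cell markers 0 rose and 1 fell (*Cd4*), with 384 to 590.0 and 337 to 755 CPM. Skeletal muscle markers summed to 115 to 427 CPM in YT-FF and 211 to 3154 CPM in YT-AKO, 1 of 7 tested rose (*Acta1*) and 0 fell, and the highest library was YT-AKO 1. Epithelial markers summed to 4.02 to 5.32 CPM in YT-FF and 4.37 to 5.81 CPM in YT-AKO, 2 of 7 passed the filter, 0 were called, and *Krt5* had no count.

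The genes most like *Lep* and *Adipoq* were sought among 10336 genes with a mean of at least 10 CPM, by the root mean square difference of log2 CPM, centered for each gene, over the 6 libraries. Those nearest *Lep* were *Slc16a12* (0.0954), *Ret* (0.146) and *Rtn4rl1* (0.232). *Slc16a12*, a transporter gene, was at 11.6, 7.87 and 17.0 CPM in YT-FF and at 7.27, 8.67 and 15.2 CPM in YT-AKO. Its likeness to *Lep* across the libraries is what it was picked for. Nearest *Adipoq* were *4430402I18Rik* (0.0284), *Sparc* (0.0366) and *Hspa12b* (0.0467). *Sparc*, a matrix protein gene, was at 2207, 2202 and 2980 CPM in YT-FF and at 3027, 3530.3 and 3673 CPM in YT-AKO.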

How the data were processed

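Bulk RNA-seq of scWAT, 3 libraries a group, was grouped by the deposited labels. The authors aligned paired-end reads with HISAT2 to mm10, then counted fragments on exons of GENCODE vM25 genes with featureCounts v2.0.1, per the file headers without strand and without fragments of several places or genes. The deposited values are raw counts per gene, with no filter. Of 55401 identifiers, 55141 matched a symbol. TPM used the exon lengths in the files.

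The 10 genes and all lists were chosen with earlier results of these data known. The main test was edgeR 4.0.16 (R 4.3.3) with TMM, filterByExpr (minimum count 10, total 15), the quasi-likelihood test without covariates and Benjamini-Hochberg adjustment over 16807 genes; calls are at an adjusted p under 0.05. Labels do not say how mice relate, and p-values measure the spread between these 3 and 3 libraries. Named genes are the 10, the targeted genes, the receptors, up to 4 called genes a list by p, and the 3 genes most like *Lep* and *Adipoq*. Some genes that this rule names are not reported here. The fits were tested on simulated data. Alternatives were DESeq2 1.42.0, limma-voom (limma 3.58.1), other scalings and filters, robust estimation, a replicate block, a length correction (spline, 6 degrees of freedom) and leaving out each library. Scaling to adipocyte genes, ratios to *Adipoq* and the length correction without YT-AKO 2 were added after seeing the data.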

Additional observations from a re-analysis of the deposited data

How the results depend on the processing

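The count of adipokine genes called higher, 4, was the same or 5 with DESeq2, limma-voom, upper-quartile scaling, no filter, at least 10 counts per library and robust estimation. It was 3 with the length correction, with or without YT-AKO 2, 2 with library totals alone and 1 when scaled to adipocyte identity genes. With each library left out it ran from 0 to 4: it was 0 without YT-FF 1, YT-FF 2 or YT-FF 3 and 2 without YT-AKO 3, where 2679 genes were called. In the 3 fits without a YT-FF library edgeR left 4, 4 and 7 of the 10 at an unadjusted p under 0.05, and over all genes 0, 2 and 1232 calls with 4665, 4507 and 6016 genes at an unadjusted p under 0.05. No fit called an adipokine gene lower. Over all genes, calls higher went from 2121 to 1137 with library totals alone and 642 with adipocyte scaling, and calls lower from 1515 to 2828 and 4296, and to 763 with the length correction. With each library left out they ran from 0 to 2925 higher and from 0 to 2424 lower, the highest without YT-AKO 2. With the replicate number as a block, 24 genes were called higher and 9 lower and 0 of the 10 adipokine genes, of which 4 kept an unadjusted p under 0.05 (with the length correction as well, 59, 22 and 0, with 5). Same-numbered libraries did not deviate together (correlations 0.139, -0.134 and -0.0911), which gives no evidence that the numbers pair mice. Log2 fold changes of uncalled genes changed sign: *Lep* (-0.56 to 0.22 over the fits without 1 library, 0.14 without YT-AKO 1); with library totals alone *Nrg4* (-0.067), *Adipor1* (-0.13) and *Ccrl2* (-0.11); with adipocyte scaling *Adipoq* (-0.0027), *Nrg4* (-0.21), *Adipor1* (-0.30), *Gpr1* (-0.15), *Ccrl2* (-0.24) and *C3ar1* (-0.029); with the length correction *Cdh13* (0.22, with the replicate block 0.22, without YT-AKO 2 0.31) and, without YT-AKO 2, *Ccrl2* (-0.021). The cause of these changes was not tested.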

Other observations

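Other secreted products of fat were listed beside the 10 adipokine genes. Of 35 tested products described for white fat, 6 rose and 4 fell in the libraries labelled YT-AKO (edgeR's quasi-likelihood test, adjusted p under 0.05 over all genes), with a median log2 fold change of 0.32, beside 12.6% of all genes called higher and 9.01% lower. *Angptl8*, an insulin-induced inhibitor of lipoprotein lipase, rose from 5.87 ± 1.10 to 49.8 ± 13.6 CPM (n = 3), and *C1qtnf12*, also named adipolin, from 43.9 ± 6.91 to 124 ± 13.8 CPM. *Lgals12*, a galectin of lipid droplets, fell from 358 ± 7.43 to 161 ± 32.0 CPM, and the imprinted gene *Mest* from 51.9 ± 27.0 to 3.48 ± 2.41 CPM. Of 11 tested products described for thermogenic fat, 4 rose and 0 fell. Beside *S100b* these were *Gdf15* (0.646 ± 0.212 to 3.35 ± 1.65 CPM), the stress hormone, *Epdr1* (10.4 ± 1.27 to 18.3 ± 2.58 CPM) and the prostaglandin D synthase *Ptgds* (0.678 ± 0.131 to 2.61 ± 1.62 CPM). *Gdf15* and *Ptgds* were counted 9 to 20 times per library in YT-FF, so their folds rest on few fragments.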
